A study of Homo sapiens with 6 samples.

Results

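The integrated stress response was followed here through 10 genes: the eIF2 kinases EIF2AK2, EIF2AK3 and EIF2AK4, the transcription factors ATF4 and DDIT3 (CHOP), and their downstream genes CHAC1, PPP1R15A, TRIB3, ASNS and SESN2. Every probe set annotated to exactly 1 of these symbols was taken, which gave 18 of the 54675 probe sets on the arrays, and all 10 genes had at least 1. The arrays measured RNA of SNU-449, an established human hepatocellular carcinoma cell line, grown in RPMI medium with fetal bovine serum, penicillin and streptomycin. Per the labels, 3 arrays carried RNA of cells that received an empty vector (genotype label Ctrl) and 3 carried RNA of cells that received USP48 (genotype label USP48 OE) from a lentivirus followed by puromycin selection of a stable strain. USP48 is a ubiquitin-specific protease. The labels describe the transduction and selection for the USP48 virus, do not name the promoter that drives USP48 or say whether the strains are clones, and do not say whether replicates were separate cultures. The p-values therefore measure only the spread between these arrays, which may be technical.

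In the integrated stress response, 4 kinases each sense a different stress and phosphorylate the translation initiation factor eIF2. Phosphorylated eIF2 slows translation of most mRNAs while ATF4 mRNA is translated more, so that ATF4 activity is set largely at the level of translation. ATF4 then induces genes of amino acid supply and, with DDIT3, genes that end the response or lead to cell death. EIF2AK2 (PKR) senses double-stranded RNA and is itself induced by interferon, EIF2AK3 (PERK) senses misfolded protein in the endoplasmic reticulum, and EIF2AK4 (GCN2) senses uncharged tRNA. Phosphorylation and protein were not measured on these arrays.

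The promoter windows of 4 members held the letters of a response element known for this pathway or for interferon, and they are shown for that match alone. The windows of ATF4, DDIT3, TRIB3, SESN2, EIF2AK3 and EIF2AK4 held none of the motifs searched. Sequences are from RefSeq (GRCh38.p14), in windows of 250 bases before to 50 after each annotated start, and all 10 members matched a window. They are printed 5′ to 3′ on the gene's strand with the matched letters in capitals. The first pair holds TGATGNAA, the core of the C/EBP-ATF element bound by ATF4 with a C/EBP partner, the next TGACGTCA, the cyclic AMP response element, and the last GAAA, any 2 bases and GAAA again, the core of the interferon-stimulated response element.
ASNS, chr7:97872443-97872502, minus strand: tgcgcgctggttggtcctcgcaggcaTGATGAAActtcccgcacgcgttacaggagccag
CHAC1, chr15:40953236-40953295, plus strand: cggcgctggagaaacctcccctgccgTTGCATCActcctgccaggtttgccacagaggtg
PPP1R15A, chr19:48872337-48872396, plus strand: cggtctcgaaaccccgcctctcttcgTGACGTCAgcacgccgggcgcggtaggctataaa
EIF2AK2, chr2:37156967-37156996, minus strand: agtccaagggGAAAACGAAActgagaacca

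The ASNS match reads on the gene's strand from base -68 to base -61 relative to the start. The CHAC1 match reads on the opposite strand from base -209 to base -202. The PPP1R15A match, from -58 to -51, is the same on both strands. The EIF2AK2 match spans the start, from -6 to 4. Each of these 4 windows held 1 of the motifs, so no matches overlapped. Searched on both strands of all 35116 RefSeq windows of this length, TGATGNAA was in 3.62%, TGACGTCA in 1.85% and the interferon-stimulated core in 3.57%. A match is a run of letters and not a measured site.

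Before the members, the arrays themselves were compared. USP48 was not called higher by any of its 5 probe sets, and 2 of them were lower in the USP48-labelled arrays (log2 differences -0.63 and -0.82), so the groups are named by their labels. The 18 hybridization control probe sets, which report labelled RNA added before hybridization, averaged 9.75 to 9.83 in the empty vector arrays and 10.02 to 10.21 in the USP48-labelled arrays. Shifting the arrays to equal controls lowers every log2 difference by 0.29, and the median over all probe sets moves from 0.03 to -0.26. Their part in the differences was not tested, and each member's value after that shift is given. The difference between the 5′ and 3′ probe sets of GAPDH was -0.32 to -0.44 in the empty vector arrays. In USP48-labelled replicates 1, 2 and 3 it was -0.51, -0.45 and -1.31. For ACTB it was -3.26 to -3.70 in the empty vector arrays and -3.88, -3.44 and -4.14 in USP48-labelled replicates 1, 2 and 3. USP48-labelled replicate 3 was the lowest for both genes, so counts are also given without it. Of 9 measured hepatocyte markers, 2 (TTR and TF) lay above the median of every array in both groups and albumin did not. Of 4 epithelial markers 3 (KRT8, KRT18 and EPCAM) did, and of 4 mesenchymal markers all 4 (VIM, FN1, CDH2 and COL1A1) did. So did 2 of 9 leukocyte markers (CD3E and ITGAM), 2 of 4 endothelial markers (PECAM1 and CDH5) and 1 of 2 erythroid markers (HBB). A mean above the median therefore does not by itself show a cell type. Of 4 epithelial markers EPCAM and CDH1 were lower (log2 differences -0.42 and -0.38) and 0 were higher. CDH1 lay below the median of every array in both groups, at means of 2.95 in the empty vector and 2.57 in the USP48-labelled arrays. The mean of the epithelial list ranged over 7.95 to 8.15 in the empty vector and 7.70 to 7.94 in the USP48-labelled arrays. Of 4 mesenchymal markers FN1 was higher (1.48) and VIM and CDH2 were lower (-0.42 and -0.65), with list means of 8.99 to 9.05 and 8.91 to 9.15. Of 4 endothelial markers CDH5 was lower (-0.42), and of 9 hepatocyte, 9 leukocyte and 2 erythroid markers measured 0 passed the test in limma, while 4 of these 20 had an unadjusted p under 0.05. The part of these markers in the members' differences was not tested.

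Transcripts of ATF4, DDIT3 and their downstream genes rose in the USP48-labelled arrays, while those of EIF2AK3 and EIF2AK4 fell. At the probe set of each gene with the highest mean over all 6 arrays, 8 of the 10 genes rose and 2 fell. Of all 19775 genes 14.0% rose and 13.2% fell (limma, adjusted p under 0.05 over all probe sets). For EIF2AK2, counted as risen, that choice rests on the USP48-labelled arrays. In the empty vector arrays its probe set 213294_at, which fell, was brighter (mean 7.31 against 6.95). All 10 genes passed, beside 27.1% of all genes, and the groups of all 10 did not overlap, beside 42.9%. After scaling to the hybridization controls 7 rose and 2 fell, beside 4.64% and 36.1% of all genes. Over the 18 probe sets, 11 rose, 4 fell and 3 did not pass, where 24.3% of all 54613 non-control probe sets were called, 10.6% higher and 13.8% lower. The 15 called probe sets are also those whose groups did not overlap, which holds for 38.2% of all probe sets. The median log2 difference over the 18 was 0.66, beside 0.03 over all probe sets. With that scaling 9 probe sets were higher and 5 lower, beside 3.34% and 39.0% of all probe sets, and without USP48-labelled replicate 3 the counts were again 11 and 4. Values are averages over the cells of a culture, so a large change in a part of the cells and a smaller one in all of them cannot be told apart.

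**Figure D1:**
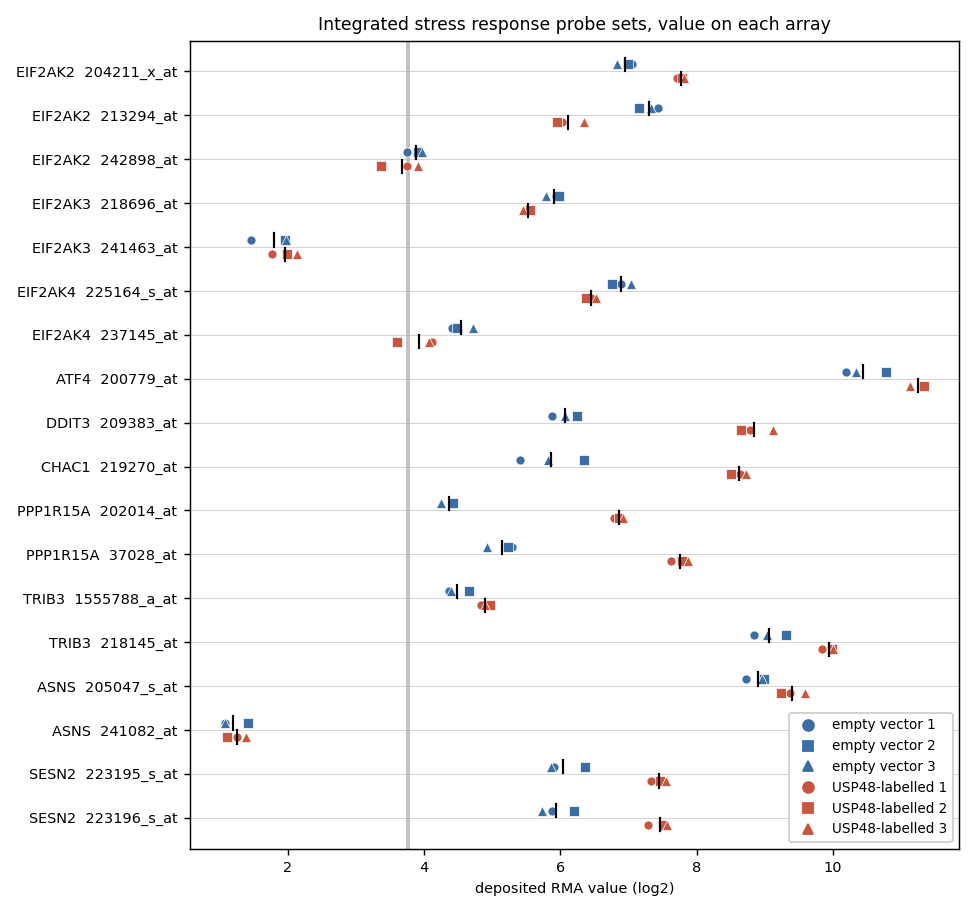
Deposited RMA value (log2) of the 18 member probe sets on each of the 6 arrays; blue marks are empty vector and red marks USP48-labelled arrays, the marker shape gives the replicate, black ticks are group means, and the grey band spans the array medians, 3.74 to 3.79. The red marks lie to the right of the blue for 11 probe sets and to the left for 4, and in the other 3 the groups overlap.

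EIF2AK2, the double-stranded RNA sensor, gave opposite results with its probe sets. Probe set 204211_x_at had the highest mean over all 6 arrays, but not in the empty vector arrays alone. It was at 7.05, 6.99 and 6.83 in the empty vector arrays and at 7.71, 7.79 and 7.81 in the USP48-labelled arrays. Every USP48-labelled array was higher, and the log2 difference of 0.82 (SE 0.10, 95% interval 0.61 to 1.03; adjusted p = 0.000119) is 1.76-fold. Probe set 213294_at was at 7.43, 7.15 and 7.34 against 6.02, 5.95 and 6.35. Here every USP48-labelled array was lower, with a log2 difference of -1.20 (SE 0.12, 95% interval -1.47 to -0.93; adjusted p = 5.44e-05). The dimmer 242898_at, at 3.75, 3.91 and 3.97 against 3.74, 3.37 and 3.91, overlapped between the groups (-0.20, 95% interval -0.50 to 0.10). The suffix _x_at marks a probe set whose probes can match other transcripts as well, and where the probe sets lie in the gene was not analysed here. The opposite directions held after scaling to the hybridization controls (0.52 and -1.49), and the mean of the 3 probe sets had a log2 difference of -0.195 (adjusted p = 0.138).

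EIF2AK3, the sensor of the endoplasmic reticulum, fell at its brighter probe set 218696_at. It was at 5.94, 5.98 and 5.79 in the empty vector arrays and at 5.56, 5.56 and 5.46 in the USP48-labelled arrays, and the groups did not overlap. The log2 difference was -0.38 (SE 0.09, 95% interval -0.58 to -0.17; adjusted p = 0.0125), 1.30-fold lower, and -0.67 after scaling to the hybridization controls. That call did not hold without replicate 2 of the empty vector group (-0.34, adjusted p = 0.0575) or with the mean of both probe sets (-0.11, adjusted p = 0.396). Its other probe set 241463_at lay far below the median of every array, at group means of 1.80 ± 0.29 and 1.96 ± 0.18 (SD, n = 3 each), with overlapping groups and a difference of 0.16 that turned to -0.13 after that scaling.

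EIF2AK4, the sensor of uncharged tRNA, fell with both probe sets. Probe set 225164_s_at was at 6.89, 6.76 and 7.04 in the empty vector arrays and at 6.45, 6.38 and 6.52 in the USP48-labelled arrays. All 3 USP48-labelled arrays were below all 3 of the other group, and the log2 difference was -0.45 (SE 0.10, 95% interval -0.67 to -0.22; adjusted p = 0.00778), 1.36-fold lower. Probe set 237145_at, nearer to the array median, was at 4.41, 4.49 and 4.72 against 4.12, 3.61 and 4.07, a difference of -0.61 (adjusted p = 0.00959), with USP48-labelled replicate 2 the lowest. With the scaling to equal controls they were -0.74 and -0.90. Over the 7 kinase probe sets 1 rose, 4 fell and 2 did not pass, with a median of -0.38. Of all probe sets 10.6% rose and 13.8% fell, with a median of 0.03. After scaling to the hybridization controls 1 of the 7 rose and 5 fell, with a median of -0.67. With that scaling 3.34% of all probe sets rose and 39.0% fell, with a median of -0.26.

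The kinase EIF2AK1 (HRI), which senses heme shortage and mitochondrial stress and is not among the 10 genes, fell as well. Its brighter probe set 217736_s_at was at 9.28 ± 0.05 against 8.47 ± 0.08 (SD, n = 3 each), with a difference of -0.81 (SE 0.09, adjusted p = 9.25e-05), and its other probe set was at -0.46.

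ATF4, the transcription factor of the pathway, rose in every USP48-labelled array. Its 1 probe set, 200779_at, was at 10.19, 10.78 and 10.34 in the empty vector arrays and at 11.30, 11.35 and 11.13 in the USP48-labelled arrays. Empty vector replicate 2 was the highest of its group, 0.35 below the lowest USP48-labelled array. The log2 difference was 0.82 (SE 0.14, 95% interval 0.50 to 1.13; adjusted p = 0.0017), 1.76-fold, and 0.52 after scaling to the hybridization controls (adjusted p = 0.0115).

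DDIT3, which encodes CHOP, a bZIP factor induced by ATF4, rose in every USP48-labelled array. Probe set 209383_at was at 5.88, 6.24 and 6.06 in the empty vector arrays and at 8.78, 8.65 and 9.12 in the USP48-labelled arrays, so that the groups lay far apart. The log2 difference was 2.79 (SE 0.14, 95% interval 2.49 to 3.09; adjusted p = 7e-07), 6.91-fold, and ranked 32 from the highest among the 19775 genes. It was 2.49 after scaling to the hybridization controls and 2.65 without USP48-labelled replicate 3, which was the highest array. The order of DDIT3 and CHAC1 turned in 2 of the 6 fits with an array left out, at 2.88 and 3.01 without empty vector replicate 2 and at 2.65 and 2.71 without USP48-labelled replicate 3.

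CHAC1, a glutathione-degrading enzyme induced downstream of ATF4, rose by an amount whose interval overlaps that of DDIT3. Probe set 219270_at was at 5.41, 6.35 and 5.82 in the empty vector arrays and at 8.64, 8.50 and 8.73 in the USP48-labelled arrays. The empty vector arrays spread over 0.95 and the USP48-labelled arrays over 0.23, and the groups lay apart. The log2 difference was 2.76 (SE 0.19, 95% interval 2.34 to 3.19; adjusted p = 5.26e-06), 6.79-fold, and 2.47 after scaling to the hybridization controls.

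PPP1R15A (GADD34), the phosphatase subunit that directs removal of the phosphate from eIF2 and so ends the response, rose with both of its probe sets. Probe set 37028_at was at 5.29, 5.23 and 4.93 in the empty vector arrays and at 7.62, 7.79 and 7.87 in the USP48-labelled arrays. The log2 difference was 2.61 (SE 0.12, 95% interval 2.35 to 2.87; adjusted p = 5.35e-07), 6.10-fold. Probe set 202014_at was at 4.41, 4.42 and 4.25 against 6.79, 6.85 and 6.93, a difference of 2.50 whose interval of 2.29 to 2.70 overlaps that of the first. After scaling to the hybridization controls they were 2.31 and 2.20. Its paralog PPP1R15B, which is made constantly, was at a difference of 0.16 (adjusted p = 0.322; -0.14 after scaling to the hybridization controls).

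TRIB3, a pseudokinase that restrains ATF4 and DDIT3, rose with both probe sets, with intervals that lie below those of PPP1R15A. Probe set 218145_at was at 8.85, 9.31 and 9.04 in the empty vector arrays and at 9.84, 9.99 and 10.01 in the USP48-labelled arrays. The groups did not overlap, and the log2 difference was 0.88 (SE 0.12, 95% interval 0.61 to 1.15; adjusted p = 0.00038), 1.84-fold. Probe set 1555788_a_at was at 4.37, 4.66 and 4.40 against 4.83, 4.96 and 4.89, a difference of 0.42 (adjusted p = 0.013). It did not hold without replicate 1 (adjusted p = 0.0592) or 3 of the empty vector group (adjusted p = 0.0541) and after scaling to the hybridization controls (0.12, adjusted p = 0.409), while 218145_at stayed past the threshold there (0.58, adjusted p = 0.00193).

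ASNS, asparagine synthetase, is a classical ATF4 target, and its increase was the smallest among the brightest probe sets of the genes that rose. Probe set 205047_s_at was at 8.73, 8.995 and 8.96 in the empty vector arrays and at 9.38, 9.24 and 9.60 in the USP48-labelled arrays. The groups did not overlap, and the log2 difference was 0.51 (SE 0.12, 95% interval 0.25 to 0.77; adjusted p = 0.00844), 1.43-fold. The call was lost after scaling to the hybridization controls (0.22, adjusted p = 0.155) and with the mean of both probe sets (0.29, adjusted p = 0.0691). The other probe set, 241082_at, was among the dimmest, at 1.07 to 1.42 and 1.10 to 1.39, with overlapping groups (0.06, 95% interval -0.21 to 0.33; -0.23 after that scaling).

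SESN2, a stress-induced leucine sensor that inhibits mTORC1, rose with both probe sets. Probe set 223195_s_at was at 5.90, 6.36 and 5.87 in the empty vector arrays and at 7.33, 7.47 and 7.55 in the USP48-labelled arrays. The log2 difference was 1.40 (SE 0.13, 95% interval 1.11 to 1.70; adjusted p = 3.36e-05), 2.65-fold. Probe set 223196_s_at was at 5.88, 6.20 and 5.73 against 7.29, 7.51 and 7.57, a difference of 1.52 (95% interval 1.23 to 1.81), and with the scaling to equal controls they were 1.11 and 1.22. The groups lay apart in both, and the intervals of the probe sets overlap. Its paralog SESN1 fell by 0.40 on the log2 scale (adjusted p = 0.0123), which did not hold without replicate 2 of the empty vector group (adjusted p = 0.0597).

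**Figure D2:**
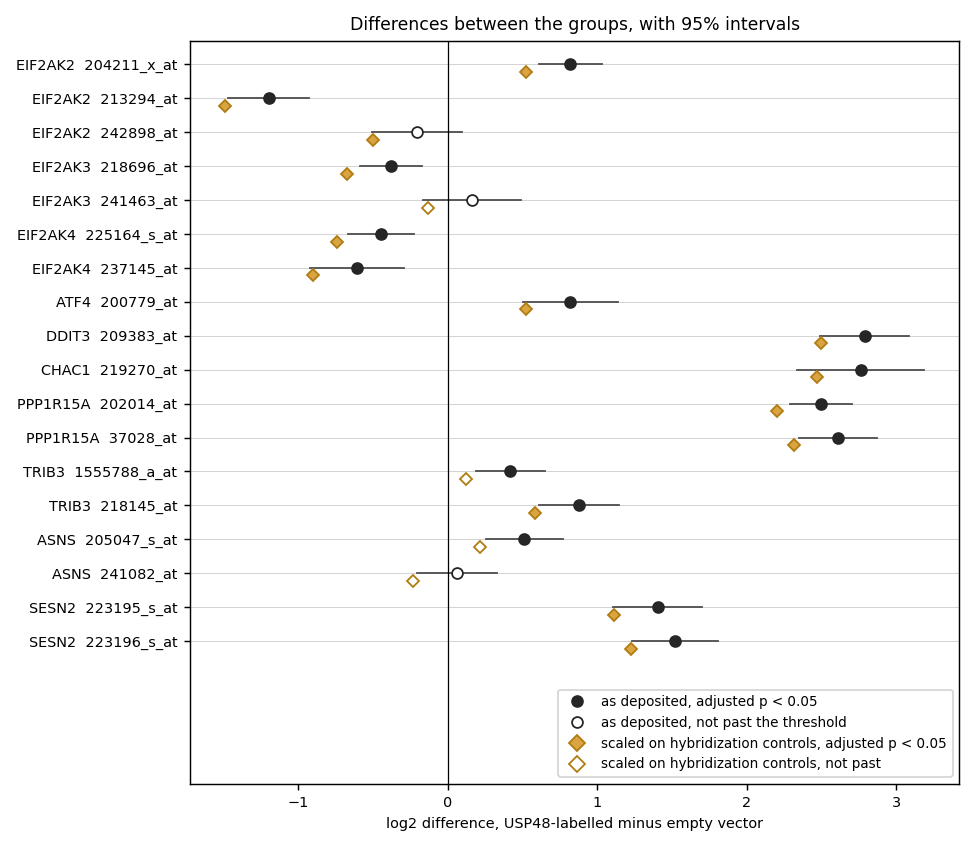
Log2 difference, USP48-labelled minus empty vector, of the 18 member probe sets: circles are the deposited values with their 95% intervals and diamonds the values after scaling to the hybridization controls, filled where the adjusted p is under 0.05. DDIT3, CHAC1 and PPP1R15A stand between 2.50 and 2.79, the EIF2AK2 probe sets lie on both sides of 0, and TRIB3 1555788_a_at and ASNS 205047_s_at are the 2 circles that are filled while their diamonds are open.

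The 10 called probe sets of ATF4, DDIT3 and the downstream members mostly had the same highest array within the empty vector group, a pattern noticed after the values were seen. Empty vector replicate 2 was the highest of its group in 9 of the 10, beside 33.0% of all probe sets and 34.8% of those above the median level. The 1 exception was PPP1R15A 37028_at, where replicate 1 was higher by 0.06. These probe sets stem from 7 genes, and TRIB3, PPP1R15A and SESN2 each give a pair. Among 28 measured ATF4 and CHOP targets outside the members, empty vector replicate 2 was the highest in 20 (71.4%). In the USP48-labelled group replicate 3, the array with the lowest GAPDH 5′ to 3′ difference, was the highest in 8 of the 10 and in 14 of the 28 targets, beside 34.0% of all probe sets; the part of RNA quality in this was not tested. The widest spread was that of CHAC1, from 0.45 below to 0.49 above the empty vector mean. Without empty vector replicate 2 the log2 differences of ATF4, CHAC1 and SESN2 223195_s_at were 0.99, 3.01 and 1.56, their highest among the arrays left out in turn.

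**Figure D3:**
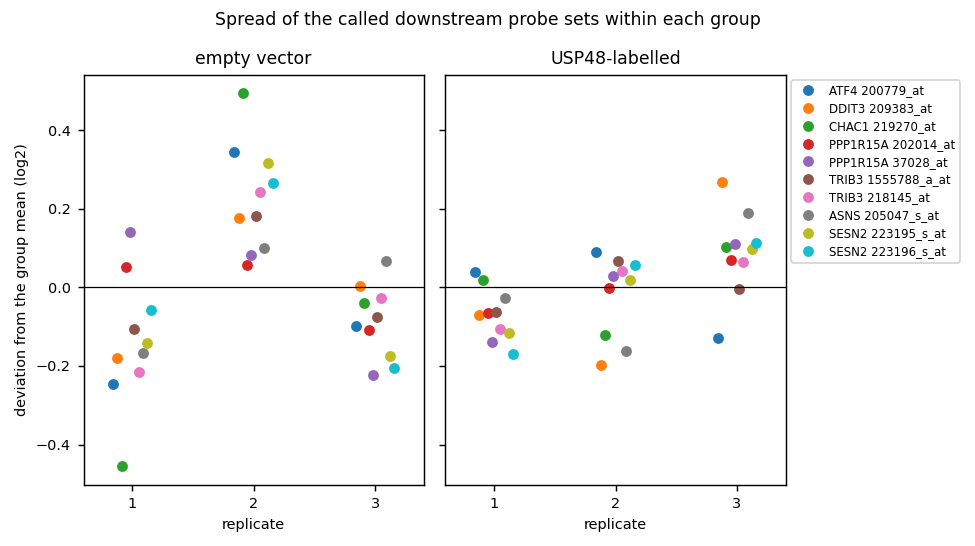
Deviation of each array from the mean of its own group (log2) for the 10 called probe sets of ATF4, DDIT3 and the downstream genes, empty vector arrays on the left and USP48-labelled arrays on the right; 1 point per probe set and array. In the empty vector group all 10 points of replicate 2 lie above 0, and CHAC1 has the widest spread.

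Around the members, 6 of 21 genes of eIF2 and its regulators passed the test, a share close to the 27.1% of all genes. Of 10 bZIP partners of ATF4 and DDIT3 and related factors, 7 rose. Genes of these lists were counted at the brightest probe set. Of 21 genes of eIF2, its exchange factor eIF2B, its phosphatases and regulators, 2 rose and 4 fell, with a median of -0.09, beside 0.05 over all genes. The largest differences were those of IMPACT, an inhibitor of EIF2AK4 activation, which fell by 0.85 on the log2 scale (adjusted p = 0.000228), of EIF2AK1, and of the phosphatase catalytic subunit PPP1CC, which fell by 0.65 (adjusted p = 0.00041). The genes that rose, EIF2S1, the eIF2 subunit that is phosphorylated, at 0.41, and DNAJC3, an inhibitor of the eIF2 kinases, at 0.37, and the remaining gene that fell, PRKRA, an activator of EIF2AK2, at -0.37, are named after their values were seen. Without empty vector replicate 2 the count that rose was 0, without USP48-labelled replicate 1 or 3 or empty vector replicate 3 it was 1, and after scaling to the hybridization controls 0 rose and 12 fell, beside 4.64% and 36.1% of all genes.

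Of 10 bZIP partners and related factors, 7 rose and 0 fell, with a median of 0.44 (where 14.0% of all genes rose). NUPR1, a small stress-induced chromatin protein, was at 4.58, 5.65 and 4.94 in the empty vector arrays and at 7.54, 8.13 and 6.98 in the USP48-labelled arrays, a log2 difference of 2.49 (SE 0.29, adjusted p = 0.000128). ATF3, a repressor induced by ATF4, rose by 2.43 (adjusted p = 7.16e-07), with other probe sets at 0.21 to 1.47. CEBPG, a dimer partner of ATF4, rose by 1.06 (adjusted p = 2.94e-05), with its other probe set at 0.17. After scaling to the hybridization controls 3 of the 10 rose and 1 fell, beside 4.64% and 36.1% of all genes. NUPR1, ATF3 and CEBPG were the ones that rose and CEBPA, at -0.35, the one that fell. Both were read off after the values were seen.

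Of 28 measured ATF4 and CHOP targets outside the members, 11 rose, 2 fell and 15 did not pass, beside 14.0% and 13.2% of all genes, with a median of 0.24, beside 0.05. STC2, a secreted glycoprotein of the stress response, was at 5.52, 6.14 and 5.91 in the empty vector arrays and at 8.49, 8.65 and 8.88 in the USP48-labelled arrays, a log2 difference of 2.82 (SE 0.16, adjusted p = 1.52e-06). The other probe set of STC2 was at 1.715. GDF15, a stress-induced cytokine, rose by 1.82 (adjusted p = 1.08e-06), with other probe sets at 0.81 to 1.56. CTH, which makes cysteine from cystathionine, rose by 1.60 (adjusted p = 4.35e-06), and its other probe set was at 1.58. The 2 that fell were enzymes of mitochondrial folate and proline metabolism, ALDH1L2 at -0.53 and ALDH18A1 at -0.27, named as the only ones after their values were seen. The count that fell was 3 without USP48-labelled replicate 3, and 1 when any of the other 5 arrays was left out. After scaling to the hybridization controls 8 rose and 7 fell, beside 4.64% and 36.1% of all genes, and the median turned to -0.05, beside -0.24 over all genes.

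Of 8 paralogs of the members 1 rose and 2 fell, beside 14.0% and 13.2% of all genes. Their median of 0.07 turned to -0.22 after scaling to the hybridization controls (0.05 and -0.24 over all genes). TRIB1 rose by 0.56 (adjusted p = 0.000931), with other probe sets at 0.08 to 0.37. Its call was lost after that scaling (0.27, adjusted p = 0.0682), and EIF2AK1 and SESN1 were the 2 that fell. Without empty vector replicate 2, 1 paralog fell.

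The other branches of the unfolded protein response, which share the endoplasmic reticulum signal with EIF2AK3, moved in both directions. Of 20 measured genes of the ATF6 and IRE1 branches and related factors 6 rose and 3 fell, with a median of 0.10. Over all genes the median was 0.05, and 14.0% rose and 13.2% fell. After scaling to the hybridization controls 4 rose and 6 fell, beside 4.64% and 36.1% of all genes, and the median turned to -0.20, beside -0.24. ERN1, the IRE1 sensor, rose by 1.21 (adjusted p = 0.000166), with other probe sets at 0.24 to 0.51. HERPUD1, a component of protein disposal at the endoplasmic reticulum and also a target of ATF4, rose by 0.71 (adjusted p = 0.00182), with its other probe set at 0.20. CREB3L2, a membrane-bound bZIP factor counted here as a related factor, fell by 1.02 on the log2 scale (adjusted p = 8.95e-05). Its other probe sets were at 0.06 and 0.69. The remaining genes are named after their values were seen. Those that rose were XBP1 at 0.70, DNAJB9 at 0.63, HSPA5 at 0.58 and DNAJC3 at 0.37. After scaling to the hybridization controls HSPA5 and DNAJC3 no longer passed. Those that fell were SEL1L at -0.39 and CRELD2 at -0.40. Without empty vector replicate 2 the count that fell was 1, and without empty vector replicate 3 or USP48-labelled replicate 1 or 2 it was 2.

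Interferon-induced genes, a class to which EIF2AK2 is known to belong, rose in 13 of 14 measured cases and fell in 0, with a median of 2.62. Of all genes 14.0% rose and 13.2% fell, with a median of 0.05. After scaling to the hybridization controls 12 of the 14 rose and 0 fell, with a median of 2.33. With that scaling 4.64% of all genes rose and 36.1% fell, with a median of -0.24. ADAR, which edits double-stranded RNA, did not pass as deposited, at 0.22 (adjusted p = 0.123, and -0.07 after that scaling). ISG20, an exonuclease of RNA, was at 3.50, and IFIT1, which binds viral RNA, at 3.41 (adjusted p = 2.96e-06 and 8.2e-07). OAS2, which is activated by double-stranded RNA as EIF2AK2 is, was at 3.26, with other probe sets at 0.86 to 3.35. Its empty vector mean lay below the median of every array, so no fold is given. The EIF2AK2 probe sets 204211_x_at (0.82), 242898_at (-0.20) and 213294_at (-1.20) all lie below the list median of 2.62. The difference between them and the list was not tested.

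**Figure D4:**
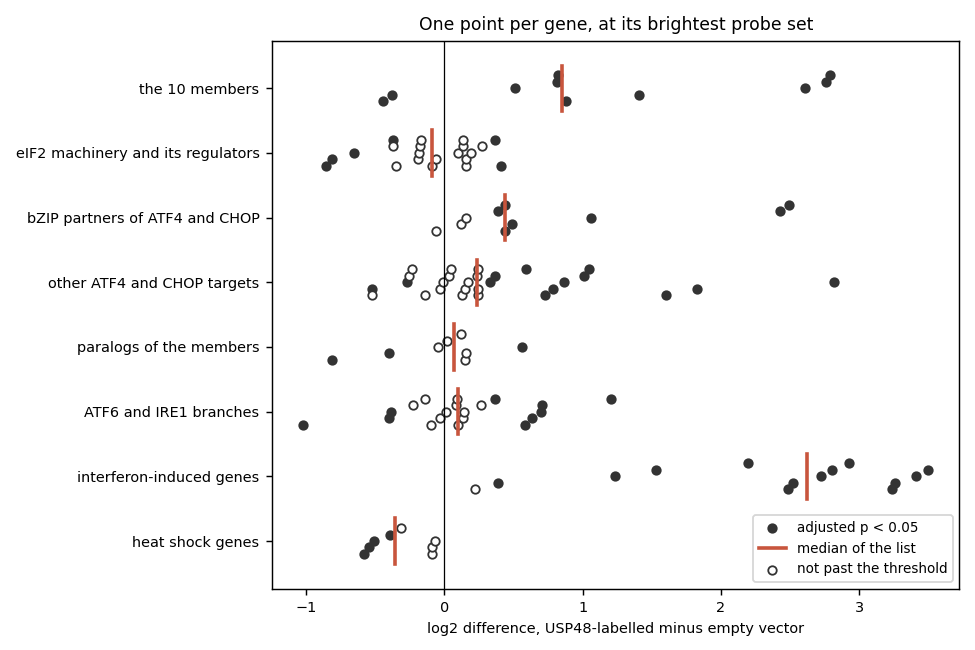
Log2 difference, USP48-labelled minus empty vector, of each gene at its brightest probe set, for the 10 members and 7 gene lists; filled circles have an adjusted p under 0.05 and red bars are medians. The medians are 0.85 for the members, 0.44 for the bZIP partners and related factors, 0.24 for the other ATF4 and CHOP targets and 2.62 for the interferon-induced genes.

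The genes whose profile over the 6 arrays was most like that of DDIT3, after centring each on its own empty vector mean, were STC2 (root mean square difference 0.12 on the log2 scale), CHAC1 (0.19), PPP1R15A (0.24), IFNB1 (0.24) and CCN2 (0.25). STC2, CHAC1 and PPP1R15A were listed above as genes of the pathway. IFNB1 encodes interferon beta, rose by 3.01 and had an empty vector mean of 2.51, below the median of every array. CCN2, a matricellular protein, rose by 2.64. For EIF2AK2 at 204211_x_at the nearest profiles were those of LZTFL1 (0.04), VRK2 (0.04), RRP12 (0.05), SLC44A3 (0.05) and MED10 (0.05), with log2 differences of 0.76 to 0.84. None of these 5 is in the fixed lists. The measure follows the size of the difference between the groups, so genes of like difference come out as near.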

How the data were processed

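The deposited values are log2 signals, 1 per probe set and array, made by the authors with RMA, as the submitters' processing notes name it; the version is not given in the sources used here. RNA was labelled with biotin per the labels. Values ran from 0.19 to 13.24. Arrays have no depth, their number (3 per group) limits the precision, and no detection calls were used. Of 54613 non-control probe sets, 41091 named 1 gene in the platform annotation, 1801 several and 11721 none; 0 named a member beside another gene, and 41037 matched RefSeq by gene ID. Groups came from the sample titles. limma 3.58.1 in R 4.3.3 (lmFit, eBayes, two-sided) was fitted on all non-control probe sets with Benjamini-Hochberg adjustment over them and a threshold of 0.05, with no filter and no further normalization. A gene of a list was counted at its brightest probe set, by the mean over all 6 arrays. Named are all members, up to 3 called genes per list with the largest absolute difference, and 5 genes nearest in profile to DDIT3 and to EIF2AK2, leaving out uncharacterised symbols. One of the fixed lists is not reported here. Members and lists were chosen with earlier results of these data known. On simulated data for this comparison (54613 probe sets) the test recovered 80% of changes of 1 and 12% of changes of 0.5 on the log2 scale, with 2 false calls; fewer probe sets changed there than in the real data, so these shares do not give the recovery here. Alternatives were quantile normalization, median centring, scaling on hybridization controls, a robust prior with an intensity trend, a filter on the dimmest probe sets, the brightest or the mean probe set per gene, a replicate block, each array left out, an adjusted p under 0.01 and a 1.5-fold limit. Figures were drawn with matplotlib 3.10.9.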

Additional observations from a re-analysis of the deposited data

How the results depend on the processing

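The counts of member probe sets past the threshold stayed within 1.5 times the reported 15 under every alternative run, from 11 with the 1.5-fold limit to 15, and at 14 to 15 with an array left out; the brightest and mean probe set per gene give no count of probe sets. At the brightest probe set 7 to 10 of 10 members passed, and 9 to 10 with an array left out; the 7 came with the mean of all probe sets or the 1.5-fold limit. EIF2AK2 at 204211_x_at (0.82) turned to -0.195 with the mean of its probe sets, which includes the lower 213294_at. After scaling on the hybridization controls, EIF2AK3 241463_at turned to -0.13 and ASNS 241082_at to -0.23, and EIF2AK2 242898_at passed (-0.50, adjusted p = 0.0075); these were not called as deposited. Leaving out 1 array moved EIF2AK3 241463_at between -0.0039 and 0.26 and ASNS 241082_at between -0.0078 and 0.18. Over all probe sets 13287 were called, 10101 to 12594 with an array left out, 5897 of 19775 genes at the brightest and 5411 at the mean probe set (fewer features tested), 8356 at an adjusted p under 0.01, 5899 with the 1.5-fold limit and 23118 after scaling on the hybridization controls, where 7.9% of calls were higher in place of 43.4%; that scaling subtracts the same amount from every difference. Of the 115 other genes in the lists 58 passed, 51 to 57 with an array left out and 37 with the 1.5-fold limit; with the hybridization control scaling 70 passed, 29 higher and 41 lower in place of 41 and 17. Deviations of same-numbered arrays correlated at -0.02, 0.11 and -0.02, and 2 of 6 arrays correlated best with their own number, so the numbers were not taken as pairs; with the replicate block 15 member probe sets, 10 members, 12702 probe sets and 60 list genes passed.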

Other observations

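Heat shock genes encode chaperones and co-chaperones of the cytosol and, for HSPD1 and HSPE1, of mitochondria. They fell in 4 of 8 measured cases and rose in 0, where 13.2% of all genes fell. HSPA1A, HSPA1B and HSPA8 had no probe set annotated to that symbol alone and are not counted. The median was -0.36, beside 0.05 over all genes, and -0.65 after scaling to the hybridization controls, beside -0.24. The chaperone genes DNAJB1, HSPB1 and HSPH1 fell by 0.59, 0.54 and 0.51 on the log2 scale (adjusted p = 0.000643, 0.00172 and 0.00524). The other probe set of DNAJB1 was at -0.18, and those of HSPH1 were at -0.77 and -0.76. BAG3, a co-chaperone named after its value was seen, fell by 0.40.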
